A study of Macaca mulatta with 9 samples.

Results

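The genes described here had a higher mean prostate signal after the lower dose of TCDD than in vehicle controls and a lower mean signal after the higher dose. The authors' deposited table of fold changes named 1063 gene symbols, and 162 of them (15.2%) were chosen. A gene was chosen when its mean log2 level at 30 ng/kg was at least 0.4 above vehicle and its mean at 300 ng/kg was at least 0.4 below vehicle. Both thresholds were met by 171 symbols, and 9 of these belonged to a list of 11 genes that the rule left out. The members were therefore chosen by the group means of both dose comparisons, and these values are given as a description, with no test. The symbols ABHD11 and WBSCR21 name the same gene on separate probes, so the 162 symbols stand for 161 genes.

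The samples were total RNA from the prostate glands of 9 rhesus monkey (Macaca mulatta) offspring, 1 per array and 3 per group. Dams of the vehicle group received 0 ng/kg TCDD, and the other dams received 30 or 300 ng/kg under the skin on gestation day 20. Each dam was then given 5% of her first dose at intervals of 30 days through pregnancy and nursing, with the last on day 90 after delivery. The offspring were necropsied 7 years after the exposure, and the labels give no strain, genotype or litter. Whole gland was homogenised, so fewer cells of a type and less RNA per cell cannot be told apart. The labels number the samples within a group and do not say that they came from separate dams, so the spread between them may include animals of shared origin.

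TCDD is the most studied of the dioxins, long-lived in body fat, and acts through the aryl hydrocarbon receptor, a transcription factor that ligands switch on. The bound receptor moves to the nucleus, pairs with ARNT and activates genes such as those of the cytochrome P450 CYP1 family. The prostate consists of secretory luminal epithelium over a basal layer, set in a stroma rich in smooth muscle and fibroblasts, and it depends on androgen for its growth and secretion. Dose responses that change direction between a lower and a higher dose are called non-monotonic and are a recurrent topic in the study of hormonally active compounds.

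Levels are on a log2 scale. Each is the processed signal of the gene's brightest probe relative to the 75th percentile of signal on the same array, so a value of 0 lies at that percentile. Signals of different probes depend on the probe and are not compared between genes. Values of the 3 arrays of a group are always given in the order of replicates 1, 2 and 3. A pair of values in parentheses gives the mean at 30 ng/kg minus vehicle and then the mean at 300 ng/kg minus vehicle. The standard error (SE) of such a difference (n = 3 arrays per group) came from the linear model of limma. That model draws the spread of each gene within the 3 groups towards that of all tested probes. For widely spread genes the SE is thus smaller than their own arrays alone would give. The SE had a median of 0.38 over the members tested and ranged from 0.24 to 1.24.

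The median difference of the 162 genes was 0.66 at 30 ng/kg and -0.87 at 300 ng/kg, beside 0.02 and -0.01 over all 15160 tested probes. Differences at 30 ng/kg ran from 0.40 to 1.78 and those at 300 ng/kg from -4.40 to -0.41. The larger of both differences lay at 300 ng/kg for 113 genes and at 30 ng/kg for 49. In 16 genes both differences were at least 1 in size. The extraction program marked 150 of the 162 probes well above background on all 9 arrays, and no spot of theirs was saturated. Of the 162, 157 passed the filter on dim probes and 5 did not (OPRL1, CRYBB1, CDH19, RIPK1 and NXF5).

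The share of symbols that met both thresholds was 16.1% before the listed genes were left out, in a table that holds probes already selected by the authors for a fold change and a p-value. Among all tested probes of the array, 4.85% met both thresholds. The opposite pattern, lower at 30 ng/kg and higher at 300 ng/kg by the same thresholds, was met by 37 symbols (3.48%) and by 1.0% of tested probes. Both doses lay at least 0.4 above vehicle for 102 symbols. In the authors' deposited table all 162 genes are listed as up at 30 ng/kg and down at 300 ng/kg. By the authors' deposited table a fold of 1.5 was passed at both doses by 88 of them, at 30 ng/kg only by 24 and at 300 ng/kg only by 50. For 153 genes the authors' deposited table and the levels computed here gave both differences within 0.01 on the log2 scale. Both come from the same 9 arrays, so the shared directions and values check only the computation and are no separate evidence.

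**Figure D1:**
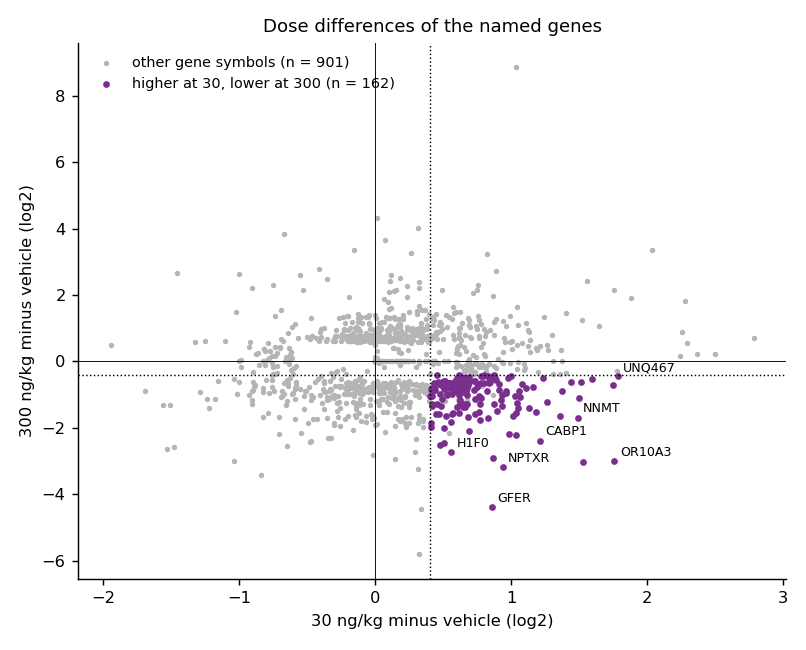
Difference of the 300 ng/kg mean from vehicle (vertical axis, log2) against that of the 30 ng/kg mean (horizontal axis, log2), 1 point per gene symbol of the authors' table. The 162 chosen genes (purple) fill the corner beyond the dotted thresholds at 0.4 and -0.4, and GFER reaches -4.40 at 300 ng/kg while UNQ467 reaches 1.78 at 30 ng/kg.

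Across the whole array, the linear model of limma called no probe at a Benjamini-Hochberg adjusted p under 0.05 (0.0% of 15160) in any of the 3 comparisons. The smallest adjusted p from limma was 0.946 for 30 ng/kg against vehicle, 0.158 for 300 ng/kg against vehicle and 0.104 for 300 against 30 ng/kg. At an unadjusted p under 0.05 the counts were 766, 2357 and 3130 probes. Of these, 489 (3.23%) were higher at 30 ng/kg than in vehicle, 1238 (8.17%) were lower at 300 ng/kg than in vehicle, and 1899 (12.5%) were lower at 300 than at 30 ng/kg. No p is given for a member, because the same comparisons chose it. Precision was limited by 3 arrays per group.

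The arrays differed in brightness. The 75th percentile of processed signal was 514, 1193 and 798 intensity units on the vehicle arrays, 343, 1356 and 363 at 30 ng/kg and 1258, 1612 and 2374 at 300 ng/kg. The arrays also lay on 3 slides: slide 1 held 2 vehicle arrays, slide 2 held 1 vehicle array and 2 of 30 ng/kg, and slide 3 held 1 array of 30 ng/kg and all 3 of 300 ng/kg. No slide held vehicle and 300 ng/kg together, so within slides those groups cannot be compared. The tissue label was checked against markers of secretory luminal cells. The kallikrein KLK3 read between 8.05 and 10.84 and the seminal protein MSMB between 4.88 and 6.90 over the 9 arrays, and the transglutaminase TGM4 was above background on all 9. Gene names came only from the authors' deposited table, so a marker is called measured here only where that table names it. Markers outside that table were not looked up on the array. Of 130 listed markers of 16 cell types, 17 were measured in this sense, 5 lists had none measured, and no member was among them.

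The 162 genes were not evenly high on the 3 arrays of 30 ng/kg. Their median deviation from the vehicle mean was 1.1 on array 1 and 0.97 on array 3, the dimmest arrays of the study, and 0.00 on array 2, which was 1 of the brighter arrays. On arrays 1 and 3, 161 and 159 of the genes lay above the vehicle mean, while on array 2 only 83 did. At 300 ng/kg the medians were -0.74, -0.80 and -1.11, and 161, 159 and 160 genes lay below the vehicle mean. The vehicle arrays themselves had medians of 0.23, -0.11 and -0.06. The higher level at 30 ng/kg thus rested on 2 of the 3 arrays, and the lower level at 300 ng/kg was present on all 3.

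**Figure D2:**
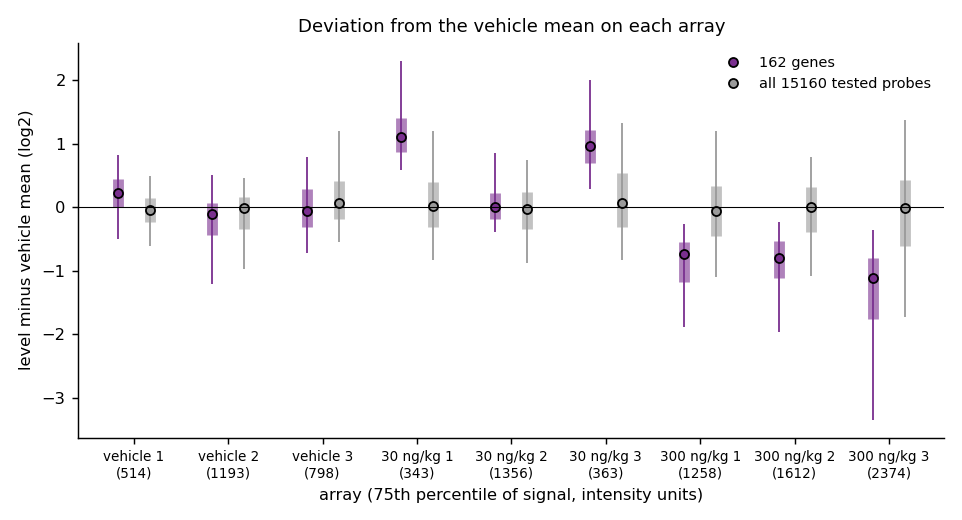
Level minus the vehicle mean (vertical axis, log2) on each of the 9 arrays (horizontal axis, with the 75th percentile of signal), for the 162 genes (purple) and all 15160 tested probes (grey); points are medians, thick bars quartiles and thin lines the 5th to 95th percentile. The genes sit near 1 on 30 ng/kg arrays 1 and 3, at 0.00 on array 2 and below 0 on every 300 ng/kg array, while the median of all probes stays near 0 throughout.

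Within groups the levels also followed brightness. In the 30 ng/kg group the brightest array was the lowest of the 3 for 148 of the 162 genes (91.4%), against 43.3% of all tested probes. The brightest array was the lowest for 105 genes (64.8%, against 38.9%) at 300 ng/kg and for 72 genes (44.4%, against 35.1%) in vehicle. All 3 groups had this order in 56 genes (34.6%, against 16.3%). The median slope within groups was -0.48 log2 units for each doubling of brightness, against -0.02 over tested probes and -0.06 over the symbols. It was below 0 in 151 genes (93.2%), against 51.9% of tested probes and 57.0% of the symbols whose arrays differed within groups. The 37 genes of the opposite pattern had a median slope of 0.26, and the 102 genes higher at both doses had one of 0.04.

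With brightness as a covariate the median difference of the 162 genes was 0.43 at 30 ng/kg and -0.40 at 300 ng/kg. Both directions were kept by 151 genes (93.2%), against 17.6% of tested probes and 26.0% of the symbols. Of the 151, 43 still met both thresholds, as did 54 of the 1063 symbols and 214 of the 15160 tested probes. The same 9 arrays chose the members by these directions, so nothing is read from the counts. Vehicle array 2, 30 ng/kg array 2 and 300 ng/kg array 1 were similar in brightness (1193, 1356 and 1258 units), with 1 array per group and so no replicate check. Between them, 106 genes (65.4%) were higher at 30 ng/kg than in vehicle, with a median difference of 0.17, against 54.2% of all tested probes and 56.8% of the symbols. On the same arrays 152 genes (93.8%) were lower at 300 ng/kg than in vehicle, with a median of -0.57, against 48.8% of tested probes and 51.1% of the symbols. Both directions were kept by 96 genes (59.3%), against 17.9% and 22.7%. These arrays are among those that chose the members. Brightness moved with dose in this study, and its part in the pattern was not tested beyond these values.

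**Figure D3:**
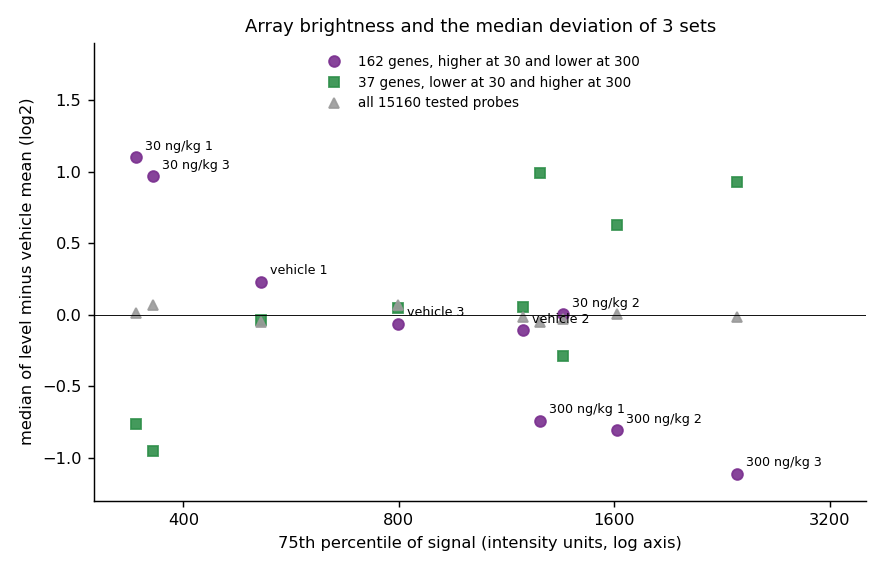
Median deviation from the vehicle mean (vertical axis, log2) against the 75th percentile of signal (horizontal axis, log scale, intensity units), 1 point per array and set. The medians of the 162 genes (purple, arrays labelled) fall from 1.1 on the dimmest array to -1.11 on the brightest, the 37 genes of the opposite pattern (green) run from -0.76 to 0.92 on those arrays, and all tested probes (grey) stay near 0.

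Slides were also taken 1 at a time, with the same arrays that chose the members. On slide 2 alone, the mean of 2 arrays of 30 ng/kg minus 1 vehicle array had a median of 0.61. Above 0 were 153 of the 162 genes (94.4%), against 45.5% of tested probes and 58.4% of the symbols. Singly, the dim 30 ng/kg array 1 minus that vehicle array had a median of 1.21. There 158 genes (97.5%) were above 0, against 44.7% of tested probes and 56.0% of the symbols. The bright array 2 gave a median of 0.11, with 93 genes (57.4%) above 0, against 46.7% and 50.9%. On slide 3 alone, 300 minus 30 ng/kg had a median of -1.85, against -0.06 over tested probes. The 30 ng/kg side of slide 3 was array 3 alone, 1 of the 2 dimmest arrays. That no gene was above 0 there was fixed beforehand, because every 300 ng/kg array of every member lay below every 30 ng/kg array.

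The groups of 3 arrays overlapped more at 30 than at 300 ng/kg. All arrays of 30 ng/kg lay above all vehicle arrays in 24 of the 162 genes (14.8%), a state found in 4.93% of tested probes and in 15.9% of the 1063 symbols of the authors' table. The members' share at 30 ng/kg was thus no higher than that of the table they came from. All arrays of 300 ng/kg lay below all vehicle arrays in 120 genes (74.1%), against 11.2% of tested probes and 41.4% of the symbols. In all 162 genes every 300 ng/kg array lay below every 30 ng/kg array, against 14.4% of tested probes and 44.3% of the symbols. Only 12 genes had all 3 groups apart in the order 30 ng/kg, vehicle and 300 ng/kg, against 0.218% of tested probes and 1.41% of the symbols. The rule used these comparisons, so nothing is read from the counts.

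Those 12 genes showed the pattern on every array. TESSP2, now called PRSS42P, was named for a testis serine protease. It read -0.81, 0.21 and -0.76 in vehicle, 0.76, 0.47 and 0.37 at 30 ng/kg and -3.74, -0.98 and -3.16 at 300 ng/kg. CLTCL1, a clathrin heavy chain, read -2.34, -1.58 and -2.51 in vehicle, -1.01, -1.46 and -1.18 at 30 ng/kg and -4.16, -3.06 and -3.24 at 300 ng/kg. SULT4A1, a brain sulfotransferase, read -0.64, 0.03 and -0.08 in vehicle, 1.71, 0.18 and 0.20 at 30 ng/kg and -1.14, -1.99 and -1.06 at 300 ng/kg. In all 3 genes the nearest vehicle and 30 ng/kg arrays lay close together without overlap.

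TTC21A, an intraflagellar transport protein, had levels of 0.98, 0.52 and 0.19 in vehicle, 2.49, 1.12 and 2.20 at 30 ng/kg and 0.06, -0.28 and -0.75 at 300 ng/kg. AEGP, an apical endosomal glycoprotein now called MAMDC4, had 0.03, 0.71 and 0.89 in vehicle, 1.96, 0.92 and 2.10 at 30 ng/kg and -0.40, 0.00 and -0.41 at 300 ng/kg. YPEL1, a yippee-like zinc-binding protein, had 0.12, -0.08 and 0.31 in vehicle, 1.07, 0.67 and 1.85 at 30 ng/kg and -0.16, -1.05 and -0.46 at 300 ng/kg. These 3 genes differed more at 30 than at 300 ng/kg: TTC21A by 1.37 and -0.89, AEGP by 1.11 and -0.81 and YPEL1 by 1.08 and -0.67.

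The next genes had vehicle arrays close to each other. NUDT18, a nudix hydrolase that cleans up oxidised nucleotides, read 1.05, 0.93 and 0.75 in vehicle, 2.03, 1.23 and 1.37 at 30 ng/kg and 0.36, 0.12 and 0.30 at 300 ng/kg. IL17RC, a subunit of the interleukin 17 receptor, read 0.21, 0.00 and -0.14 in vehicle, 0.89, 0.61 and 0.77 at 30 ng/kg and -0.16, -0.53 and -0.99 at 300 ng/kg. CNOT3, a subunit of the CCR4-NOT deadenylase, read 1.23, 1.37 and 1.39 in vehicle, 2.26, 1.51 and 2.62 at 30 ng/kg and 0.91, 1.08 and 0.79 at 300 ng/kg. The vehicle arrays of each of these 3 genes lay within 0.40 of each other. CCHCR1, a coiled-coil protein, read 1.69, 1.08 and 1.11 in vehicle, 2.52, 1.82 and 2.17 at 30 ng/kg and 0.69, 0.99 and 0.94 at 300 ng/kg. APBA2BP, now called NECAB3, read -2.61, -2.77 and -3.11 in vehicle, -1.98, -2.46 and -2.53 at 30 ng/kg and -3.65, -3.27 and -3.36 at 300 ng/kg. RCV1, the photoreceptor calcium sensor recoverin, read -2.99, -3.07 and -3.0 in vehicle, -2.49, -2.58 and -2.55 at 30 ng/kg and -3.82, -3.25 and -4.15 at 300 ng/kg. The vehicle and 30 ng/kg arrays of RCV1 were the tightest of these, and its 300 ng/kg arrays were spread more widely.

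The other members are described by role. The 11 role groups were set by hand after the values were known, and no group was tested. Their counts keeping both directions stand beside 26.0% of the symbols and 17.6% of tested probes with brightness as a covariate. The members were chosen for these directions, so the counts are a description only. The plot of the dose differences by role gives their medians and ranges, which overlapped widely.

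**Figure D4:**
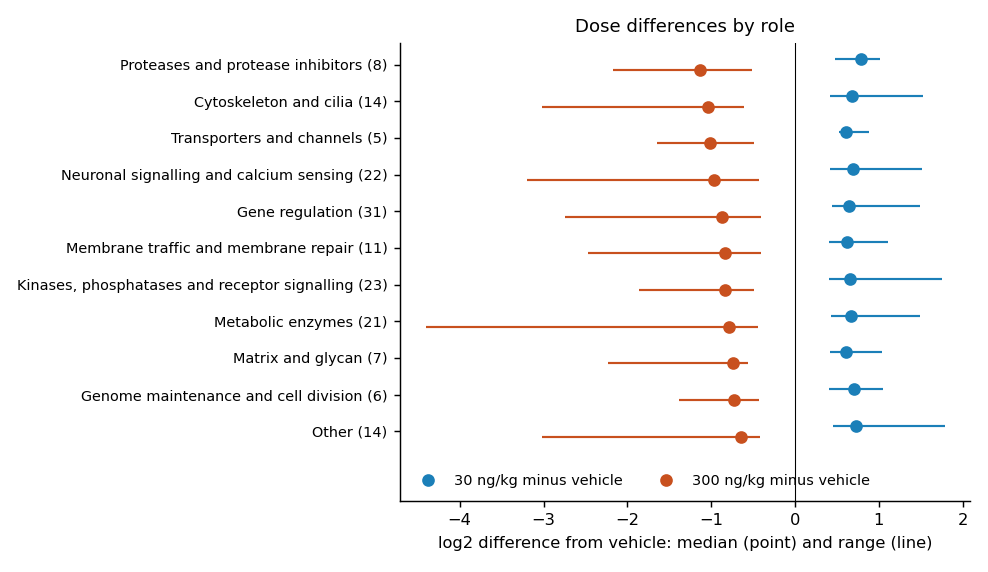
Median (point) and range (line) of the log2 difference from vehicle (horizontal axis) at 30 ng/kg (blue) and 300 ng/kg (orange) for the genes of each role group (vertical axis, number of genes in parentheses). Medians at 30 ng/kg lie between 0.61 and 0.79 and those at 300 ng/kg between -1.13 and -0.65, with ranges that overlap between all groups.

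Gene regulators formed the biggest group, with 31 genes and median differences of 0.65 and -0.87. With brightness as a covariate the medians were 0.41 and -0.31, and 30 genes kept both directions. ZBTB16 encodes PLZF, a zinc finger repressor known to respond to androgen and glucocorticoid. Its levels were 7.09, 6.37 and 7.24 in vehicle, 9.12, 6.66 and 9.01 at 30 ng/kg and 5.02, 6.21 and 4.53 at 300 ng/kg, a pair of differences of 1.36 and -1.65 (SE 0.68). Array 2 of the 30 ng/kg group lay among the vehicle arrays of this gene, and all 300 ng/kg arrays lay below them.

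H1F0, the linker histone H1.0 of non-dividing cells, read 7.15, 5.19 and 6.65 in vehicle, 8.13, 5.75 and 6.78 at 30 ng/kg and 4.55, 4.47 and 1.76 at 300 ng/kg (0.56 and -2.74, SE 0.88). Its 30 ng/kg arrays overlapped the vehicle arrays, and 300 ng/kg array 3 lay far below the other two. The 30 ng/kg difference of H1F0 was -0.11 with brightness as a covariate, -0.01 without vehicle replicate 2 and -0.06 without 30 ng/kg replicate 1. EDF1, a coactivator of nuclear receptors, read 5.63, 5.19 and 5.08 in vehicle, 6.32, 5.35 and 5.77 at 30 ng/kg and 4.66, 4.86 and 4.58 at 300 ng/kg (0.51 and -0.60). A second EDF1 probe differed by -0.19 and -1.34, so the probes disagreed at 30 ng/kg. AKAP8L, a nuclear protein of the kinase-anchoring family, read 5.44, 4.84 and 5.05 in vehicle, 6.55, 4.86 and 6.73 at 30 ng/kg and 4.19, 4.43 and 3.72 at 300 ng/kg (0.93 and -1.0).

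Several zinc finger genes shared the pattern. ZNF192, now ZKSCAN8, read -2.78, -3.93 and -3.22 in vehicle, -1.80, -3.16 and -1.18 at 30 ng/kg and -4.25, -4.67 and -4.66 at 300 ng/kg (1.26 and -1.22, SE 0.49). ZNF312, now FEZF2 and known from the forebrain, read -5.24, -4.92 and -3.71 in vehicle, -2.50, -4.43 and -2.45 at 30 ng/kg and -5.24, -5.93 and -6.02 at 300 ng/kg (1.5 and -1.10, SE 0.59), and 1 of its vehicle arrays was not well above background. In both genes the second 30 ng/kg array lay below the other two. The remaining zinc finger genes were ZNF580 (0.51 and -2.01), ZNF195 (0.66 and -1.37), ZNF297, now ZBTB22 (0.74 and -1.13), and ZFPM1, the GATA cofactor FOG1 (0.56 and -1.83). NFX1, which binds X-box promoter elements, stood at 0.61 and -1.0.

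Homeobox and other developmental regulators included BARHL1 (0.61 and -1.54), NKX2-8 (0.57 and -0.99) and HOXC9 (0.63 and -0.77). SOX14, a repressor of the SOX family, had the larger difference at 300 ng/kg (0.69 and -1.66). TCF3, which encodes the E proteins, did not (0.78 and -0.45). The ETS factor ELK4 differed by 0.65 and -0.82, RFXANK of the MHC class II regulator complex by 0.55 and -0.81, and MECT1, the CREB coactivator CRTC1, by 0.75 and -0.78. PML, the organiser of nuclear bodies, differed by 0.44 and -0.71 on its brightest probe. Its 3 other probes were between -0.12 and 0.19 at 30 ng/kg and between -1.21 and -0.95 at 300 ng/kg.

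Chromatin and RNA enzymes made up the rest of the regulators. HDAC10, a polyamine deacetylase, stood at 0.57 and -1.59 and PRMT7, an arginine methyltransferase, at 0.88 and -1.29. MOV10, an RNA helicase, stood at 0.44 and -0.87, TRMT1, a tRNA methyltransferase, at 0.72 and -0.86, and DQX1, a helicase-like protein, at 0.83 and -0.45. CPSF3L, the Integrator endonuclease INTS11, differed by 0.60 and -0.68 and SNAPC4, a subunit of the small nuclear RNA activating complex, by 0.91 and -0.68. FAM50A, a spliceosome-associated protein, differed by 0.54 and -0.65. AARSL, the mitochondrial alanyl tRNA synthetase AARS2, differed by 0.57 and -0.73. NXF5, of the RNA export factor family, differed by 0.97 and -0.50 and was above background on 2 vehicle arrays and on 1 array of each dose.

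Kinases, phosphatases and receptor signalling counted 23 genes, with medians of 0.66 and -0.83 (0.46 and -0.29 with brightness as a covariate, 20 keeping both directions). PPP4C, the catalytic subunit of protein phosphatase 4, read 3.18, 1.26 and 2.67 in vehicle, 4.74, 2.29 and 3.63 at 30 ng/kg and 1.56, 0.98 and 0.04 at 300 ng/kg (1.18 and -1.51, SE 0.70). CSK, the kinase that restrains SRC, read 3.21, 1.87 and 3.02 in vehicle, 3.92, 2.31 and 3.08 at 30 ng/kg and 1.28, 1.12 and 0.12 at 300 ng/kg (0.41 and -1.86, SE 0.51). Both genes had their lowest array of each group on the brightest array. CSK lay just inside the threshold at 30 ng/kg, and without vehicle replicate 2 its difference there was -0.01.

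The growth factor cascade was represented by ARAF1 (0.45 and -1.29), a RAF kinase, MAP2K2 (0.53 and -0.76), the kinase MEK2, and RPS6KB2 (0.43 and -0.85), a ribosomal S6 kinase. ACVR2B, an activin receptor, differed by 0.78 and -1.10, and the cell cycle kinase relative CDK10 by 0.66 and -0.62. A second probe of CDK10 gave 0.64 and -0.58. VRK3, a vaccinia-related kinase homologue, differed by 0.60 and -0.49. ADCK4, now COQ8B and needed for coenzyme Q synthesis, stood at 0.42 and -0.83, and its relative ADCK5 at 0.48 and -1.35. GPR157, a G protein coupled receptor, stood at 0.57 and -1.56 and INSL6, a relaxin family hormone, at 1.60 and -0.54.

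Immune signalling genes were part of this group. SIGIRR, which damps interleukin 1 and Toll-like receptor signals, differed by 1.06 and -0.88, and AGER, the receptor for advanced glycation end products, by 0.91 and -0.85. PTPN6, the phosphatase SHP-1 of blood cells, differed by 0.66 and -0.49 and PILRB, an activating immune receptor, by 0.67 and -0.81. CARD14, a scaffold for NF-kappaB activation, differed by 0.59 and -0.87, STAP2, an adaptor, by 0.83 and -0.66 and the chemokine CCL25 by 0.55 and -0.66. NOXA1, an activator of NADPH oxidase, differed by 0.62 and -0.90. ILDR1, a protein of tricellular junctions, had one of the larger differences at 30 ng/kg (1.75 and -0.71). RIPK1, a kinase of cell death signalling, read -6.10, -6.10 and -4.58 in vehicle, -4.83, -3.86 and -4.38 at 30 ng/kg and -6.10, -6.10 and -6.10 at 300 ng/kg, where -6.10 is the floor set for dim signals. It was above background on 1 vehicle array, 1 array of 30 ng/kg and no array of 300 ng/kg. No fold is given for it, because most arrays of every group were below background. Immune cell markers could be set beside these genes only in part, since the authors' table named none of the T and NK cell markers. Of 7 B and plasma cell markers XBP1 was measured, and it read 1.14 to 1.34 in vehicle, 1.12 to 2.03 at 30 ng/kg and 2.31 to 2.89 at 300 ng/kg. Of 11 myeloid and mast cell markers CTSS and FCER1A were measured, with a summed level of -4.09 to -3.77 in vehicle, -4.24 to -3.58 at 30 ng/kg and -3.13 to -2.22 at 300 ng/kg. A summed level adds the linear signals of different probes, so the brightest probe weighs most in it. Singly, CTSS differed by -0.13 and 0.69 and FCER1A by 0.49 and 2.15. The part of immune cells in these differences was not tested.

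Neuronal signalling and calcium sensing counted 22 genes, with medians of 0.69 and -0.97. All 22 kept both directions with brightness as a covariate, where the medians were 0.46 and -0.64. CABP1, a neuronal calcium-binding protein related to calmodulin, read 3.40, 0.74 and 3.26 in vehicle, 5.12, 2.20 and 3.70 at 30 ng/kg and 0.88, 0.50 and -1.14 at 300 ng/kg (1.21 and -2.38, SE 0.92). Vehicle array 2 lay within the 300 ng/kg range, so the groups overlapped. NPTXR, the neuronal pentraxin receptor, and DOC2A, a calcium sensor of vesicle release, had the largest differences at 300 ng/kg in this group (0.94 and -3.19 and, for DOC2A, 0.86 and -2.92). Other calcium-linked genes were the calmodulin-like CALML5 (0.83 and -1.71) and CALML6 (1.51 and -0.61), the kinase subunit CAMK2B (0.90 and -1.50) and the calcium channel subunit CACNA2D3 (0.47 and -1.58).

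Receptors of transmitters were present too. GRM7, a metabotropic glutamate receptor, differed by 0.76 and -1.04 and GABBR1, a subunit of the GABA B receptor, by 0.64 and -0.77. OPRL1, the nociceptin receptor, differed by 0.63 and -1.24 and was not tested because it was dim. Downstream of such receptors, GRK4, a receptor kinase, differed by 1.00 and -0.43, ADCY4, an adenylyl cyclase, by 0.73 and -0.58, and the G protein subunit GNG8 by 0.51 and -0.83. KCNAB1, a potassium channel subunit, differed by 0.52 and -0.65. SEZ6L2 (0.65 and -1.3), the liprin PPFIA3 (0.54 and -0.72) and SNIP, the SRC inhibitor SRCIN1 (0.78 and -0.65), are known from synapses. PCSK1N, the convertase inhibitor proSAAS, differed by 0.42 and -1.27, and NRTN, the nerve growth factor neurturin, by 0.42 and -0.90. Of 12 nerve and glia markers 1 was measured: NCAM1 read -1.87 to -1.48 in vehicle, -1.24 to -0.70 at 30 ng/kg and -2.14 to -1.35 at 300 ng/kg. Whether nerve cells took part in these differences was not tested.

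Metabolic enzymes counted 21 symbols, with medians of 0.67 and -0.78 (0.46 and -0.43 with brightness as a covariate, 20 keeping both directions). NNMT, which methylates nicotinamide, read -1.45, -0.52 and 0.52 in vehicle, 1.83, -0.51 and 1.70 at 30 ng/kg and -3.17, -1.07 and -2.29 at 300 ng/kg (1.49 and -1.69, SE 0.77). Its 30 ng/kg array 2 lay inside the vehicle range and its 300 ng/kg array 2 did as well. CPT1A, which carries fatty acids into mitochondria for oxidation, read -4.05, -4.50 and -2.76 in vehicle, -2.04, -3.58 and -2.30 at 30 ng/kg and -5.04, -4.80 and -5.66 at 300 ng/kg (1.13 and -1.40, SE 0.53). All 300 ng/kg arrays of CPT1A lay below vehicle, but its 30 ng/kg difference was -0.05 on slide 2 alone. FAAH, which breaks down anandamide, read 2.57, 2.30 and 1.06 in vehicle, 3.71, 2.13 and 3.23 at 30 ng/kg and 0.69, 0.93 and 0.52 at 300 ng/kg (1.05 and -1.26, SE 0.48).

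ALPL, tissue-nonspecific alkaline phosphatase, read 1.00, 1.44 and 1.53 in vehicle, 2.30, 2.76 and 2.10 at 30 ng/kg and -0.14, 1.39 and -0.46 at 300 ng/kg (1.07 and -1.06, SE 0.45). All 3 of its 30 ng/kg arrays lay above vehicle, the bright array 2 highest, while 300 ng/kg array 2 lay among the vehicle arrays. Its differences were 1.17 and -1.28 with brightness as a covariate. ALDH1A3 makes retinoic acid and was the single member on a list of 18 aryl hydrocarbon receptor pathway and target genes. The authors' table named 3 of the 18. It read 2.60, 2.29 and 3.32 in vehicle, 3.33, 3.17 and 3.00 at 30 ng/kg and 2.05, 2.07 and 2.19 at 300 ng/kg (0.43 and -0.63, SE 0.28). One vehicle array lay among those of 30 ng/kg, and all 300 ng/kg arrays lay below. With slide as a fixed block its 30 ng/kg difference was -0.07. The other measured list genes differed from this pattern: the amino acid transporter SLC7A5 by -0.29 and 0.94, and the NF-kappaB subunit RELB by -1.02 and -0.97. None of the 3 was called by limma.

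GFER, a sulfhydryl oxidase of mitochondrial protein import, had the lowest value of all members at 300 ng/kg (0.86 and -4.40). Its levels were 4.42, -0.27 and 2.87 in vehicle, 5.27, 2.60 and 1.73 at 30 ng/kg and -1.31, -1.67 and -3.19 at 300 ng/kg. The vehicle arrays of GFER were widely spread, and the 30 ng/kg arrays overlapped them while the 300 ng/kg arrays did not. Other mitochondrial enzymes were FDXR, which feeds electrons to steroid-making P450 enzymes (0.67 and -0.89), and PC, pyruvate carboxylase (0.44 and -0.73). SELO, a selenoprotein kinase relative, stood at 0.64 and -0.52 and ECHDC3, of the enoyl-CoA hydratase family, at 0.43 and -0.78. ACACB, the acetyl-CoA carboxylase that restrains fatty acid oxidation, stood at 0.76 and -0.67. ILVBL differed by 0.63 and -0.67 and by 0.59 and -0.72 on a second probe.

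PDIA2, a protein disulfide isomerase, differed by 0.45 and -1.58 and PIGQ, of GPI anchor synthesis, by 0.65 and -0.92. HSCARG, the redox sensor NMRAL1, differed by 0.69 and -0.63 and HSPC105 by 0.58 and -0.88. The hydrolase ABHD11 differed by 0.87 and -0.51, and the WBSCR21 probe of the same gene by 0.87 and -0.44. SULT1A3, which sulfates dopamine, differed by 0.63 and -0.46 and GGTLA4, of the gamma-glutamyltransferase family, by 0.82 and -0.89. Both belong to families with near-identical copies, so their values may hold signal from relatives. A second SULT1A3 probe gave 0.22 and -1.36.

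Cytoskeleton and cilia counted 14 genes, with medians of 0.68 and -1.03 (0.45 and -0.39 with brightness as a covariate, 13 keeping both directions). SPTBN1, the widespread beta spectrin under the plasma membrane, read 2.30, -1.04 and 2.43 in vehicle, 4.60, 1.48 and 2.21 at 30 ng/kg and -1.08, -1.41 and -2.90 at 300 ng/kg (1.53 and -3.02, SE 1.07). Vehicle array 2 lay just above the highest 300 ng/kg array, more than 3 log2 units below the other vehicle arrays. CYFIP2, of the WAVE complex that nucleates actin, read 4.44, 3.84 and 4.38 in vehicle, 5.12, 3.78 and 5.01 at 30 ng/kg and 3.38, 3.36 and 2.84 at 300 ng/kg (0.42 and -1.03), and its 30 ng/kg array 2 was below every vehicle array.

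Actin and adhesion genes in this group were CTEN, the tensin TNS4 (0.60 and -1.37), WIRE, the WASP-binding protein WIPF2 (0.68 and -1.28), and MICAL-L2 (0.65 and -1.36). ELMO3, which activates RAC, differed by 1.03 and -1.04 and MYH14, a nonmuscle myosin, by 0.58 and -0.78. Microtubule genes were FSD1 (0.47 and -2.51), the severing enzyme FIGN (1.04 and -1.55) and the kinesin KIF12 (1.44 and -0.61). Of cilia, GAS8, a part of the axonemal dynein regulatory complex, differed by 0.97 and -0.95 and AZI1, the centriolar satellite protein CEP131, by 0.56 and -0.73. Of 11 smooth muscle markers 2 were measured, and the summed level of TPM2 and LMOD1 was 7.79 to 8.40 in vehicle, 7.92 to 8.81 at 30 ng/kg and 6.87 to 7.64 at 300 ng/kg. This sum followed the brighter TPM2, which differed by 0.38 and -0.73, while LMOD1 differed by -0.18 and -0.81. The part of smooth muscle in these differences was not tested.

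Membrane traffic and repair counted 11 genes, with medians of 0.62 and -0.84. With brightness as a covariate the medians were 0.33 and -0.50, and 8 kept both directions. RAB1B, the GTPase of transport from endoplasmic reticulum to Golgi, read 6.86, 5.45 and 6.52 in vehicle, 7.47, 5.89 and 6.69 at 30 ng/kg and 5.08, 4.88 and 2.96 at 300 ng/kg (0.41 and -1.97, SE 0.64). Its 30 ng/kg arrays overlapped vehicle, and that difference was -0.07 with brightness as a covariate. DYSF, dysferlin, which reseals torn membrane, read 4.71, 3.78 and 4.69 in vehicle, 5.89, 4.04 and 5.55 at 30 ng/kg and 3.12, 3.64 and 1.89 at 300 ng/kg (0.77 and -1.51).

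HGS, the sorting protein of early endosomes, read 4.13, 3.94 and 3.91 in vehicle, 4.90, 3.90 and 5.04 at 30 ng/kg and 3.53, 3.81 and 3.41 at 300 ng/kg (0.62 and -0.41). Its 30 ng/kg array 2 lay at the level of the lowest vehicle array, and its 300 ng/kg difference was 0.06 with brightness as a covariate. AUP1, a lipid droplet protein that also serves protein quality control, read 4.21, 3.79 and 3.97 in vehicle, 4.90, 3.92 and 5.13 at 30 ng/kg and 3.51, 3.47 and 3.45 at 300 ng/kg (0.66 and -0.51). Golgi and endosome coats were represented by the adaptor subunits AP1G2 (0.49 and -1.12) and AP1S1 (0.64 and -0.73) and by CLTCL1 (0.93 and -1.34). VPS52, of the tethering complex that returns vesicles to the Golgi, differed by 0.51 and -2.47, STX5A, a Golgi SNARE, by 0.49 and -0.62, and TBC1D10C, a RAB regulator, by 0.41 and -0.84.

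Proteases and their inhibitors counted 8 genes, with medians of 0.79 and -1.13 (0.49 and -0.61 with brightness as a covariate, all 8 keeping both directions). ADAM15, a membrane metalloprotease, read 4.87, 4.63 and 4.17 in vehicle, 5.53, 4.44 and 5.14 at 30 ng/kg and 3.05, 4.13 and 3.58 at 300 ng/kg (0.48 and -0.97). Its 300 ng/kg arrays all lay below vehicle. The epithelial serine protease PRSS8, prostasin, first found in seminal fluid, differed by 0.96 and -0.89, and SPINT1, a membrane inhibitor of such proteases, by 0.84 and -0.51. TESSP2 differed by 0.99 and -2.17. PCSK4, the convertase of sperm, differed by 1.01 and -1.63 and ITIH3, a hyaluronan-binding inhibitor chain, by 0.73 and -1.59. The metalloproteases MMP28 and ADAM33 differed by 0.65 and -1.27 and by 0.53 and -0.99.

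Matrix and glycan genes numbered 7, with medians of 0.61 and -0.74 (0.35 and -0.52 with brightness as a covariate, all 7 keeping both directions). LTBP4, which stores latent TGF-beta in elastic fibres, read 6.13, 5.28 and 5.60 in vehicle, 6.72, 5.55 and 5.99 at 30 ng/kg and 4.85, 4.72 and 3.46 at 300 ng/kg (0.42 and -1.33, SE 0.44). HS3ST3A1, a heparan sulfate sulfotransferase, read 4.46, 4.01 and 4.03 in vehicle, 5.06, 4.01 and 5.20 at 30 ng/kg and 3.27, 3.68 and 3.78 at 300 ng/kg (0.59 and -0.59). In both genes the 300 ng/kg arrays lay below all vehicle arrays and the 30 ng/kg arrays did not all lie above them. B3GAT3, which builds the linker of proteoglycan chains, differed by 1.04 and -2.23. MIA, a small secreted matrix-binding protein, differed by 0.59 and -0.72. The cell contact genes GJA3, a connexin (0.63 and -1.16), and CDH19, a cadherin (0.89 and -0.56), were counted with this group.

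The 5 transporters and channels had medians of 0.61 and -1.02, and all 5 kept both directions with brightness as a covariate. TRPV6, the epithelial calcium channel known from prostate, read 2.75, 2.97 and 2.38 in vehicle, 3.26, 2.93 and 4.22 at 30 ng/kg and 1.56, 0.75 and 1.97 at 300 ng/kg (0.77 and -1.27). The amino acid transporter SLC38A5 differed by 0.53 and -1.02 and SLC7A4, of the cationic amino acid transporter family, by 0.52 and -1.65. The lipid transporter ABCA8 differed by 0.61 and -0.87. MSCP, the mitochondrial iron importer SLC25A37, differed by 0.88 and -0.49.

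Genome maintenance and cell division counted 6 genes, with medians of 0.71 and -0.73 (0.41 and -0.20 with brightness as a covariate, 4 keeping both directions). HCAP-G, the condensin subunit NCAPG, read -4.71, -3.18 and -5.14 in vehicle, -3.16, -3.69 and -3.04 at 30 ng/kg and -6.10, -5.14 and -5.95 at 300 ng/kg (1.05 and -1.39, SE 0.49). It was above background on 1 vehicle array, on 3 of 30 ng/kg and on 1 of 300 ng/kg, so its low values are weak signals. ANAPC2, a subunit of the anaphase-promoting complex, read 2.13, 1.45 and 2.04 in vehicle, 2.63, 1.65 and 2.55 at 30 ng/kg and 1.00, 1.06 and 0.39 at 300 ng/kg (0.40 and -1.05). Its 30 ng/kg arrays 1 and 3 were above vehicle and array 2 was not. RECQL4 (0.79 and -0.43), RECQL5 (0.57 and -0.80) and RTEL1 (0.80 and -0.65) are DNA helicases, and RAD9A (0.62 and -0.57) is part of a DNA damage checkpoint clamp.

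The last 14 members had no shared role, with medians of 0.73 and -0.65 (0.48 and -0.21 with brightness as a covariate, all 14 keeping both directions). OR10A3, an olfactory receptor gene, stood first when members were ranked by the smaller of their 2 differences in size. It read 2.10, -1.32 and 1.29 in vehicle, 3.74, 0.97 and 2.64 at 30 ng/kg and -0.89, -1.53 and -4.55 at 300 ng/kg (1.76 and -3.01, SE 1.17), and a second probe gave 1.60 and -3.11. Vehicle array 2 lay near the 300 ng/kg arrays and well below the other vehicle arrays, as it did in SPTBN1 and CABP1. Another olfactory receptor, OR8H1, was at 0.45 and -0.42, but it was not well above background on any 30 ng/kg array, so that level is only a bound. YPEL3, a relative of YPEL1, differed by 0.77 and -1.76.

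Of the rest, TSPAN10, a tetraspanin, differed by 0.69 and -2.11 and CRYBB1, a lens crystallin, by 0.61 and -0.92. FBXO24 (0.46 and -0.62) and FBXW9 (0.69 and -0.47) are F-box proteins, which choose targets for ubiquitin ligases, and SSB3, now SPSB3 (0.68 and -0.70), serves in such ligases too. LIMR, the lipocalin receptor LMBR1L, differed by 0.84 and -0.62 and ABTB1, an ankyrin repeat protein, by 1.16 and -0.76. KRTAP2-2, a hair keratin-associated protein of a family with close copies, differed by 0.64 and -0.56. UNQ467 had the highest 30 ng/kg difference of all members (1.78 and -0.45).

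**Figure D5:**
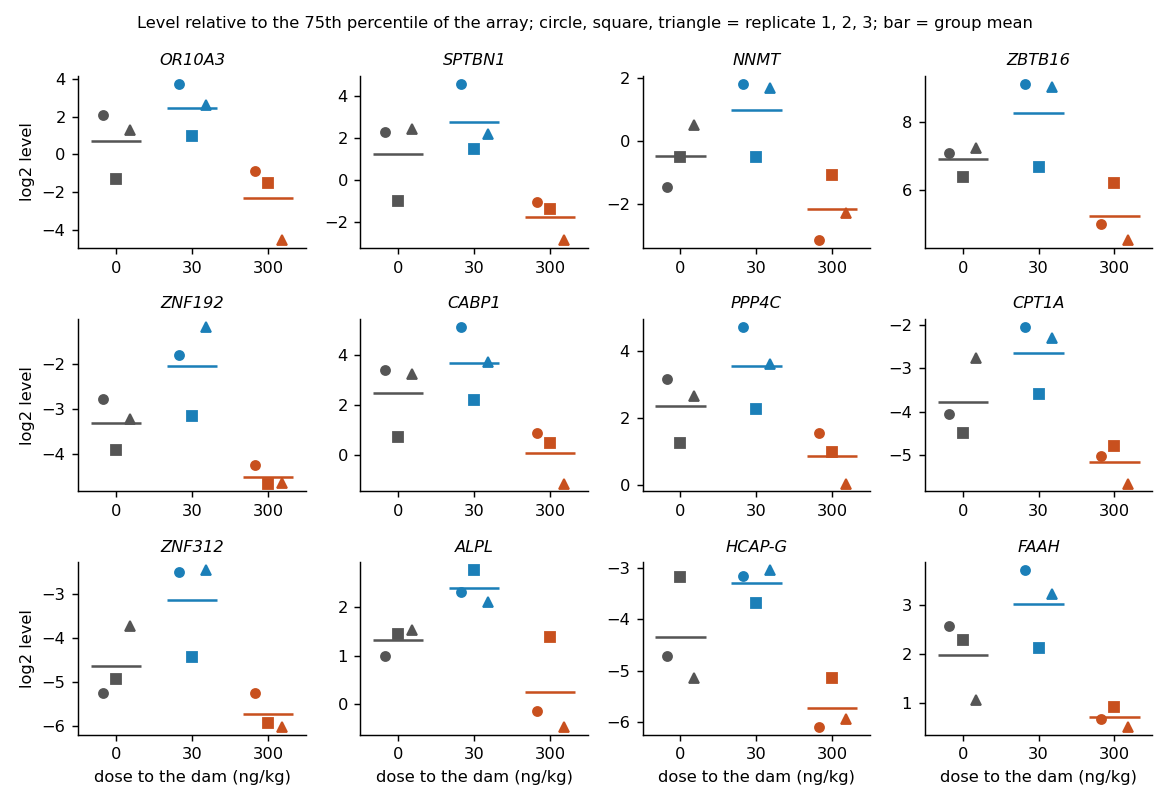
Levels (vertical axes, log2, with 0 at the array's 75th percentile) by dose to the dam (horizontal axes, ng/kg) for the 12 genes ranked highest by the smaller of their 2 differences in size; circle, square and triangle are replicates 1, 2 and 3 and bars are group means. The 30 ng/kg squares sit below the circles and triangles in 11 of the 12 panels, all but ALPL, and all 300 ng/kg points lie below all 30 ng/kg points in each.

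The edge of the set was sharp only by rule. ANAPC2 (0.40 and -1.05), CNOT3 (0.80 and -0.41) and CSK (0.41 and -1.86) lay just inside. Just outside were CDK3 (0.88 and -0.40), USP20 (0.40 and -1.18) and CETP (0.40 and -0.39). CETP lay at the floor of -6.10 on every 300 ng/kg array and on 30 ng/kg arrays 1 and 3, so its differences rest on dim signals.

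Markers of luminal cells did not share 1 pattern. Of 17 luminal markers 3 were measured, and 2 of them, KLK3 and MSMB, met the same thresholds but were among the genes left out by the rule. KLK3, whose probe had 10 saturated spots, differed by 0.76 and -1.18, and MSMB by 0.79 and -0.73. TGM4 went the other way at the higher dose and differed by 1.04 and 8.87. The summed level of the 3 was 9.29 to 9.89 in vehicle, 9.26 to 10.93 at 30 ng/kg and 8.67 to 8.92 at 300 ng/kg. KLK3, the brightest probe, weighed most in this sum. The part of the luminal share of the tissue in the differences of the 162 genes was not tested.

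Markers of other cell types named in the authors' table also differed between the groups. That table holds only probes selected for a group difference, so markers without one could not appear. That these differed was therefore fixed beforehand, and nothing is read from it. PECAM1, the single endothelial marker measured of 8, read -0.13 to 0.29 in vehicle, 1.13 to 1.60 at 30 ng/kg and -0.56 to 0.36 at 300 ng/kg. LPL, the single adipocyte marker measured of 5, read -0.15 to 0.46, 1.39 to 2.07 and 1.13 to 1.89 in the same order. PECAM1 thus stood above vehicle on every 30 ng/kg array, the bright array 2 included, and LPL stood above vehicle on every array of both doses. The summed level of 2 fibroblast markers of 8, the collagens COL1A1 and COL1A2, was 2.75 to 3.00 in vehicle, 2.57 to 3.09 at 30 ng/kg and 3.43 to 4.32 at 300 ng/kg. Singly, COL1A1 differed by 0.34 and 1.54 and COL1A2 by -0.17 and 0.75. The summed level of 2 basal markers of 8, ITGB4 and S100A2, was 2.18 to 2.80, 2.95 to 3.37 and 2.58 to 2.67. This sum followed the much brighter ITGB4, which differed by 0.72 and 0.21. S100A2 differed by -0.69 and 1.55 and was above background on 6 of 9 arrays. KRT13, the single hillock and stratified cell marker measured of 7, was above background on 4 of 9 arrays and read -4.13 to -1.20 at 300 ng/kg. Of 12 immediate early and handling stress genes 3 were measured. The early response gene IER2 differed by 0.22 and -1.84, and the heat shock genes HSPA1A and HSPH1 differed by -0.10 and 1.16 and by -0.06 and 1.34. None of these genes is a member, and their part in the pattern of the 162 genes was not tested.

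Some members lie side by side in the genome. Of the 162 symbols, 155 were found in the RefSeq annotation of the rhesus assembly T2T-MMU8v2.0, which was used only for names and gene order, and 38 of them had another member within 10 protein-coding genes. Next to each other were NNMT and ZBTB16, AEGP and EDF1, AUP1 and DQX1, and FSD1 and STAP2. NNMT and ZBTB16 were both among the 12 genes ranked highest by the smaller of their 2 differences. PPP4C and YPEL3 had 1 gene between them, DOC2A and PPP4C had 4, YPEL3 and SULT1A3 had 5, and DOC2A and SEZ6L2 had 6. ADCK4 and LTBP4 had 1 gene between them, and ADCK4 and MIA had 3. TBC1D10C was separated by 1 gene from RAD9A and by 1 from RPS6KB2. Whether members neighbour each other more often than other listed genes was not tested.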

How the data were processed

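Agilent 1-colour arrays, 9 in all, measured prostate RNA from 9 rhesus offspring. Per the labels' protocols, 0.5 ug of each RNA was labelled with Cy3. Images were read with Agilent Feature Extraction 9.5.1.1, per the file headers (version 9.5 in the submitters' processing notes). The processed signal deposited by the authors is a linear intensity from which the program took the background array by array, without normalization between arrays. The authors' deposited table gives a fold as a ratio for 1502 probes, of which 1096 carry a gene symbol, together with log2 group means. The table states that its probes had p up to 0.05 in a 1-way analysis of variance and a fold of 1.5 or more.

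The 2 spots of each of 20217 probes were averaged after outlier flags were left out. Signals were divided by the array's 75th percentile, given a floor of 5 units on the dimmest array, and converted to log2, where the floor is -6.10. Symbols that are only placeholders for a locus were left out, and the brightest probe stood for a symbol. A single fit in limma 3.58.1 (R 4.3.3) took all 9 arrays with group as its only term. It covered 15160 probes that had at least 1 group with every array well above background. Calls used the 2-sided Benjamini-Hochberg adjusted p over all tested probes. Precision is limited by the number of arrays: the median residual SD was 0.40 over all tested probes and 0.51 over the members.

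The members, the lists and the role groups were chosen with earlier results of these data known. Given in full are the 12 members ranked highest by the smaller of their 2 differences, the 12 with the highest mean level, those whose groups are fully ordered, 3 just inside the threshold with 3 just outside, and list members. GFER, RIPK1 and TRPV6 were given array by array after their values were seen. Deviations from the group mean of vehicle and 30 ng/kg arrays with equal numbers correlated by 0.134, 0.543 and 0.264. Pairs of arrays with unequal numbers were not computed, and array 2 was the brightest in both groups. These values therefore cannot show whether the numbers pair the samples, and the labels do not say what a number stands for. Equal-numbered pairs with a 300 ng/kg array correlated between -0.256 and 0.104. Alternatives covered background correction, scaling, floor, spot flags, probe choice, slide, brightness, replicate block, array weights, filters, thresholds and each array left out. Added after seeing the data were placeholder names, 3 arrays of similar brightness and leaving out the 2 dimmest arrays. Some members and markers counted above are not reported here by name.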

Additional observations from a re-analysis of the deposited data

How the results depend on the processing

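The count of symbols meeting the rule was 162 and became 314 with normexp background correction (122 of the 162 among them), 48 with brightness as a covariate (43 of the 162) and 81 at a threshold of 0.6. Leaving out single arrays gave 98 (without 30 ng/kg replicate 1) to 223 (without 30 ng/kg replicate 2). Normexp shifted the median of all probes: by 0.29 at the lower and by -0.22 at the higher dose. The median difference of the members at 300 ng/kg was -1.29 with slide as a fixed block and -0.40 with brightness as a covariate. With only the 3 arrays of similar brightness, 96 members kept both directions and the median at 30 ng/kg was 0.17; without the 2 dimmest arrays, which leaves array 2 alone at 30 ng/kg, these were 83 and 0.0041. Leaving out single arrays, the members keeping both directions ranged from 155 to 162, the median at 30 ng/kg from 0.45 to 1.00 and that at 300 ng/kg from -0.96 to -0.76. The causes were not tested.

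The count of limma calls was 0 in all 3 comparisons. For 30 ng/kg against vehicle it became 6 with slide as a fixed block, and 0 to 1 without single arrays. For 300 ng/kg against vehicle it became 198 with array weights, and 0 to 271 without single arrays (271 without 300 ng/kg replicate 2). For 300 against 30 ng/kg it became 2 with slide as a fixed block, 3 with median scaling, 1 with the replicate block and 2951 with array weights. Without single arrays it was 0 to 774 (774 without 30 ng/kg replicate 2, 155 without 300 ng/kg replicate 2). The replicate block left the members' differences as they were, since each number occurs once in each group. It changed no other call.

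Of 1482 values of the 38 members given in full, 1416 stayed within the spread between replicates, 54 moved and 12 reversed. Some could not move: the replicate block changes no difference, and leaving out an array of 1 dose leaves the other dose's difference unchanged. The tally also leaves out 2 settings added after seeing the data. With only the 3 arrays of similar brightness, 56 of the 162 members were at or below 0 at 30 ng/kg. Without the 2 dimmest arrays 79 were. The 30 ng/kg difference reversed for CPT1A with slide as a fixed block and on slide 2 alone (-0.051 in both), for ALDH1A3 likewise (-0.069), and for H1F0 with brightness as a covariate (-0.11), without vehicle replicate 2 (-0.014) and without 30 ng/kg replicate 1 (-0.064, in a range up to 1.13 without single arrays). It reversed for RAB1B with brightness as a covariate (-0.068) and without vehicle replicate 2 (-0.0024, in a range up to 0.81), and for CSK without vehicle replicate 2 (-0.0054, in a range up to 0.80) and without 30 ng/kg replicate 1 (-0.0011). The 300 ng/kg difference of HGS reversed with brightness as a covariate (0.058). No slide holds vehicle and 300 ng/kg, so slides taken alone give no value for that comparison, for the rule or for both directions together. Signals of the 12 members below background on some arrays are the least certain.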
